A study of Mus musculus with 12 samples.

Results

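The 5 GATA transcription factor genes Gata2, Gata3, Gata4, Gata5 and Gata6 were taken by name from the GENCODE M1 annotation of the mouse genome (build mm9), where all 5 were found among 22367 protein-coding genes outside the mitochondrial genome. Their trimethylation of histone H3 at lysine 27 (H3K27me3) was read from 10 deposited peak lists, each made from 1 chromatin immunoprecipitation sequencing (ChIP-seq) library. For each gene and list, the bases lying under a peak were measured in a promoter window, the gene's 5′ end with 2500 bp on either side, and over the whole gene with 5 kb on either side. The lists hold positions only, with no peak height, so a percentage below is the share of a window that the peak caller marked and not an amount of H3K27me3. The number of reads behind each list is unknown from these files. The libraries are bulk, so fewer marked cells and less mark per cell cannot be told apart, and peak lists show neither the deletion of Ezh2 nor markers of the cell type.

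All libraries came from immortalized mouse embryonic fibroblasts (iMEFs) of 1 clone, called C2. It was obtained by limiting dilution of c-MYC-transduced cells with 1 floxed and 1 deleted Ezh2 allele and a tamoxifen-inducible Cre recombinase at the ROSA26 locus. Experiment 1 compared Ezh2 -/- cells, in which 4-hydroxytamoxifen had removed Ezh2 (knockout, 2 libraries), with the cells labelled Ezh2 WT/WT (wild type, 2 libraries), using the Active Motif 39155 antibody and SOLiD sequencing. Experiment 2 used antibody clone 7b11 and a HiSeq 2500 instrument, and had 1 library of the Ezh1 pre-rescue condition, 1 of the Ezh2 pre-rescue condition, 2 of Ezh2 -/- and 2 of Ezh2 WT/WT. The rescues stably expressed retroviral Flag-tagged Ezh1 or Ezh2, after which endogenous Ezh2 was deleted with 4-hydroxytamoxifen. The study calls its duplicates biological replicates, but the labels do not say that they were separate cultures, so part of the spread between them may be technical. With 1 clone, a difference cannot be told apart from a property of that clone, and between the experiments antibody and sequencing platform cannot be told apart.

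GATA factors are zinc finger proteins that bind the DNA sequence GATA. GATA2 and GATA3 are best known from blood, GATA2 in stem and progenitor cells and GATA3 in T lymphocytes, while GATA4, GATA5 and GATA6 act in the heart and in the endoderm, the germ layer of gut, liver and pancreas. H3K27me3 is deposited by Polycomb repressive complex 2 (PRC2), whose catalytic subunit is EZH2 or its paralog EZH1, and it typically covers the CpG-rich promoters of developmental regulators in cells that do not use them.

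In experiment 1 the promoter windows at the annotated 5′ ends of Gata2, Gata3 and Gata4 had peaks in both wild-type libraries. They had no peak in either knockout library, a pattern found at 18.6% of all genes. Further into Gata3, around the start site of its consensus coding sequence transcript, both knockout libraries had peaks. Coverage there was 34.5% and 14.5% in knockout and 44.2% and 36.2% in wild type. Gata5 had 1 small promoter peak in 1 knockout library, and Gata6 had promoter peaks in both, as did 4.47% of all genes. In experiment 2 all 5 promoters had a peak in the Ezh1 rescue, as did 28.2% of all genes. In the Ezh2 rescue 4 of them had one, all but Gata6, against 18.8% of all genes. Only Gata2 and Gata5 had one in both wild-type libraries of that experiment (3.11% of all genes), and none had one in either knockout list. The plot of coverage by library shows both windows for the 5 genes.

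**Figure D1:**
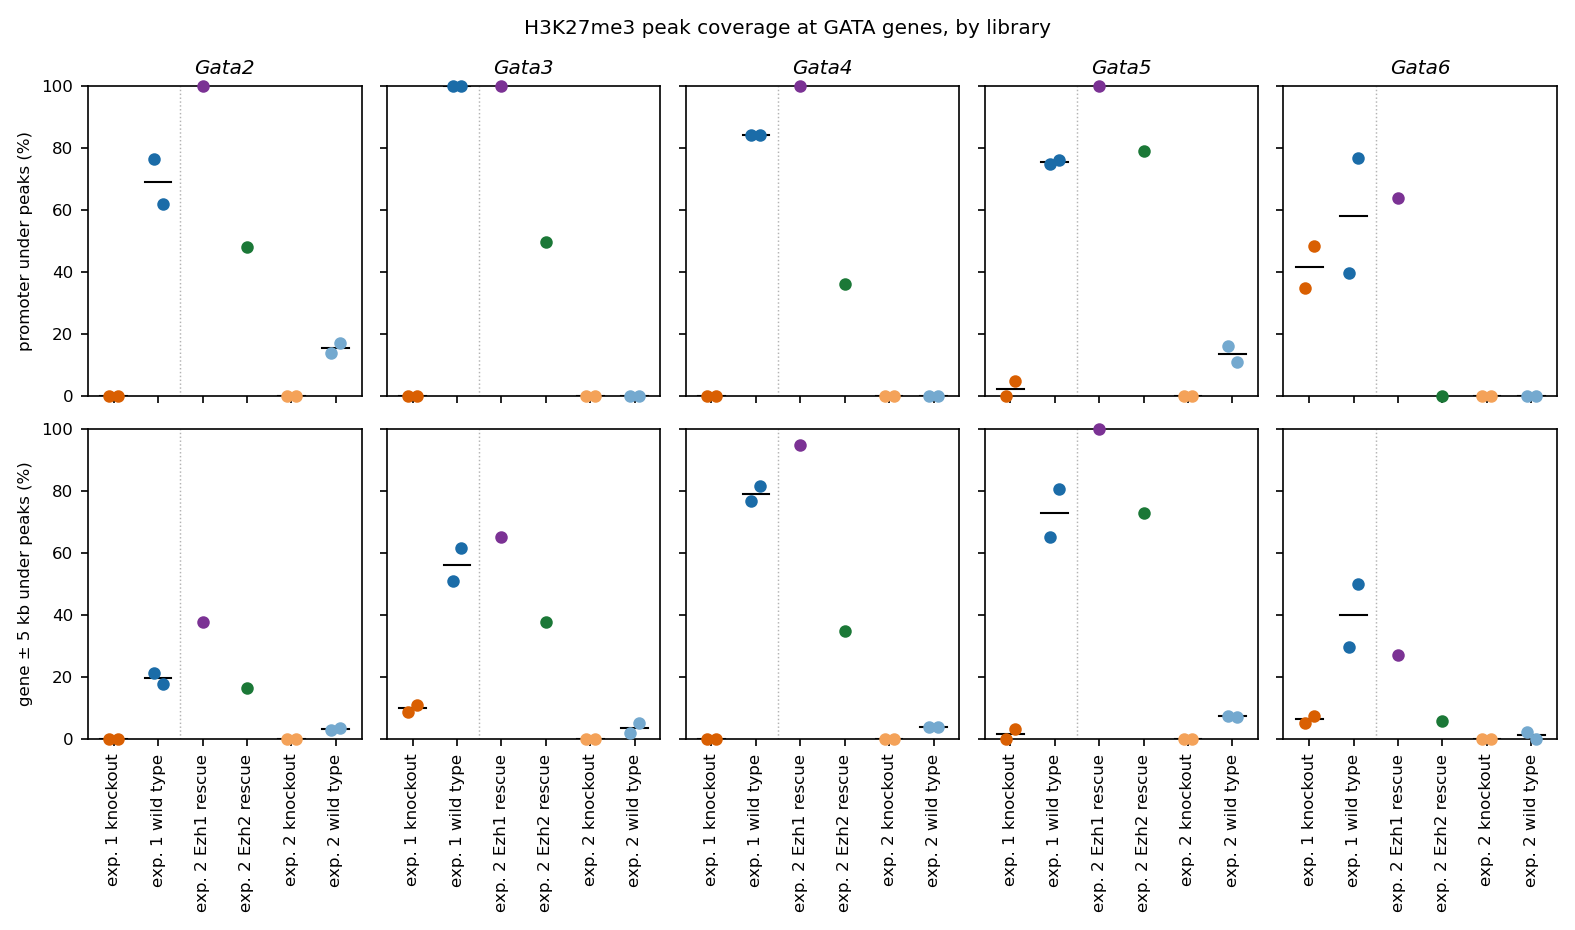
H3K27me3 peak coverage of the 5 GATA genes in 10 libraries, as the percentage of the promoter window (upper row) and of the gene with 5 kb on either side (lower row) under peaks; each point is 1 library, horizontal bars are means of 2 libraries, and the dotted line separates experiment 1 from experiment 2. In experiment 1 the knockout promoter points of Gata2, Gata3 and Gata4 lie at 0, whereas those of Gata6, at 34.9% and 48.3%, overlap the wild-type points at 39.8% and 76.6%.

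The lists differed widely in extent. Peaks covered 24.3 and 56.7 Mb in the experiment 1 knockout libraries and 141 and 177 Mb in wild type. In experiment 2 they covered 256 Mb in the Ezh1 and 80.6 Mb in the Ezh2 rescue, 0.0589 and 0.481 Mb in knockout (29 and 382 peaks), and 14.9 and 11.3 Mb in wild type. A knockout value of 0 in experiment 2 can therefore be read at nearly every gene, and a rescue value above wild type was measured between lists of very unequal extent. The study's methods describe a scaling coefficient, set by the amount of precipitated DNA, for the Ezh2 -/- and the Ezh1 rescue libraries and not for the others. Its part in the extent of their lists was not tested.

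The sequence at the start sites is shown because the peaks at Gata2 and Gata5 lie on either side of it, while at Gata4 they run across it. Each sequence comprises 250 bases before the start site and 50 bases from it onward, is written 5′ to 3′ on the strand of the gene (mm9), and has the dinucleotide CG in capitals. For Gata3 and Gata4 the start site shown first is that of the consensus coding sequence (CCDS) transcript, which lies 11434 and 26444 bp downstream of the gene's annotated 5′ end. The 5′ end of Gata3 is given for comparison. Gata2, chr6:88143635-88143934, plus strand. Gata3, CCDS transcript, chr2:9800178-9800477, minus strand. Gata3, 5′ end, chr2:9811612-9811911, minus strand. Gata4, CCDS transcript, chr14:63864036-63864335, minus strand. Gata5, chr2:180069355-180069654, minus strand.
Gata2: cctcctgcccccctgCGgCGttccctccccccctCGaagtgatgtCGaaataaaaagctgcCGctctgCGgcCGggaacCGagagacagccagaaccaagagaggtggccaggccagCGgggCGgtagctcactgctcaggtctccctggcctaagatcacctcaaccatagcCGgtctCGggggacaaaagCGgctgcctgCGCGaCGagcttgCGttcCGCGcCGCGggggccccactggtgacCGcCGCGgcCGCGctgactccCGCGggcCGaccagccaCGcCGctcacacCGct
Gata3 CCDS: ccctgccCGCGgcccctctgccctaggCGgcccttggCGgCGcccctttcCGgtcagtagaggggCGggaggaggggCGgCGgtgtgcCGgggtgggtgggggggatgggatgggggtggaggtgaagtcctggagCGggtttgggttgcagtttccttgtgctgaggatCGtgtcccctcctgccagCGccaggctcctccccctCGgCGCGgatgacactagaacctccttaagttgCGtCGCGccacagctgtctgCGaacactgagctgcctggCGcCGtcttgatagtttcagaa
Gata3 5′ end: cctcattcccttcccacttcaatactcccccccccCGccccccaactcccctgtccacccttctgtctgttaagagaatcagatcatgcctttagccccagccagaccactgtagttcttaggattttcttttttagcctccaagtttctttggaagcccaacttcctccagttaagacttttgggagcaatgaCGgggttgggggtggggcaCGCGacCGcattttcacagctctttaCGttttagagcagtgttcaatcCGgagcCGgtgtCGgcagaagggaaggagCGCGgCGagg
Gata4 CCDS: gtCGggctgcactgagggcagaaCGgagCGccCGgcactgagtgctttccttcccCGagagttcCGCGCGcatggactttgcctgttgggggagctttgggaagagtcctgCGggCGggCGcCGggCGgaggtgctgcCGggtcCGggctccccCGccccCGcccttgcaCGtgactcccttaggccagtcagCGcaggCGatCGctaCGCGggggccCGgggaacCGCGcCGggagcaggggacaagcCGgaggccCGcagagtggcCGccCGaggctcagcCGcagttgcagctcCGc
Gata5: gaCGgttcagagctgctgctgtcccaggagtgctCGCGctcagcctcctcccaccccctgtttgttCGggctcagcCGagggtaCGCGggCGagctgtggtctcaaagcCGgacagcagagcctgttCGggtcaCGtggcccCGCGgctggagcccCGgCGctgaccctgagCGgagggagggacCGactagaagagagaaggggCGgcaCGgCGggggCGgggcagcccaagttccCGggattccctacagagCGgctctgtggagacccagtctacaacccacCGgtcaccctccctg

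These 300 bases hold 32 CG dinucleotides at Gata2, 22 at the Gata3 CCDS start, 33 at the Gata4 CCDS start and 24 at Gata5. The all-gene background was taken at annotated 5′ ends, not CCDS starts, and its median over 22367 genes was 11. At their 5′ ends Gata3 had 12, Gata4 had 8 and Gata6 had 14. The letters GATA, read on both strands, were absent from the windows of Gata2, Gata4 (CCDS) and Gata5 and occurred 1 time at the Gata3 CCDS start. At annotated 5′ ends 54.7% of all genes have at least 1, and Gata4 had 2 there. Across the whole promoter window at the annotated 5′ end Gata6 was the richest of the 5 in CG, with 5.88 per 100 bases. This density is reached by 0.773% of all genes. Gata5 had 3.46, Gata2 3.24, Gata3 2.14 and Gata4 1.86 per 100 bases, and the median of all genes was 1.92. In the windows around their CCDS start sites Gata3 had 4.08 and Gata4 3.56. None of the printed Gata2 bases lay under a peak in either wild-type library of experiment 1, and of those of Gata5 only 20 did, in wild-type replicate 2. The 300 bases printed for the Gata3 CCDS start were bare in both wild-type libraries too, whereas all 300 bases of the Gata3 5′ end lay under peaks in both. All 300 bases of the Gata4 CCDS window lay under peaks in both wild-type libraries and none in either knockout library.

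Gata2 (ENSMUSG00000015053.8, chr6:88143885-88157024, plus strand) maintains blood stem and progenitor cells. Its promoter window was 0% and 0% under peaks in the experiment 1 knockout libraries and 76.5% and 61.8% in wild type. The groups did not overlap, and the difference of the means, knockout minus wild type, was -69.1 percentage points. With 2 libraries against 2 an exact two-sided permutation test can go no lower than p = 0.33, which was the value here. The difference was -41.3 points with 1000 bp and -45.2 with 5000 bp on either side, and -38.5 over the windows of all protein-coding transcripts. In both wild-type libraries the peaks stopped short of the start site, leaving 1059 and 1289 bp bare around it. Upstream, a peak ended at -391 or -403 bp from the start site, and downstream the next began 669 or 887 bp into the gene, in the first intron. Of the gene with its flanks, 0% and 0% lay under knockout peaks and 21.3% and 17.7% under wild-type peaks, and within this window no wild-type peak of the experiment lay beyond 2982 bp into Gata2.

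In experiment 2 the Gata2 promoter was 100% covered in the Ezh1 and 48.0% in the Ezh2 rescue, 0% and 0% in knockout and 14.0% and 17.0% in wild type. Knockout lay below wild type without overlap, with a difference of -15.5 points (p = 0.33, exact permutation test, two-sided, n = 2 each), or -32.0 with 1000 bp and -7.75 with 5000 bp on either side, -7.93 over all transcripts' windows and 0 with peaks of at least 1000 bp only. By share of the window under peaks the order was Ezh1 rescue, Ezh2 rescue, wild type and knockout; this is no order of H3K27me3 amounts, and each rescue is 1 library, so no spread stands beside its value. In the Ezh2 rescue the start site was again bare, over 1050 bp, whereas a single Ezh1 rescue peak of 6450 bp ran across it.

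**Figure D2:**
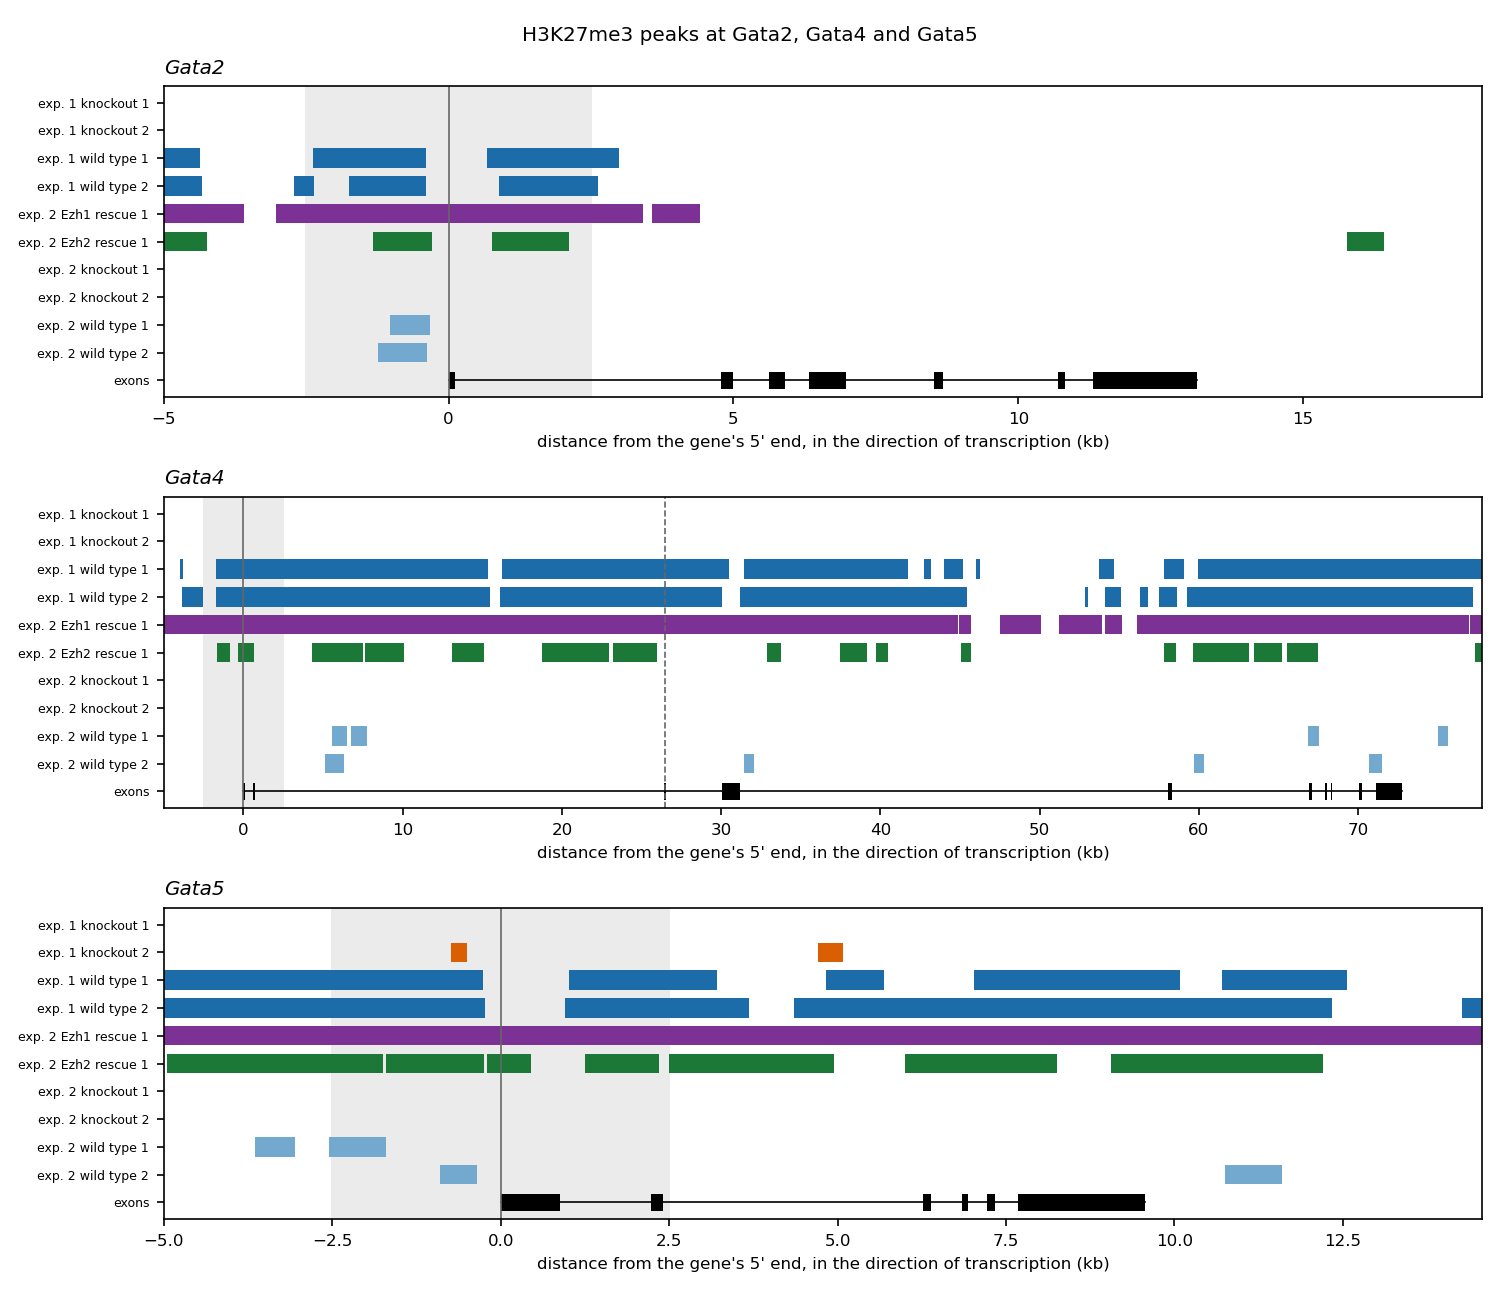
Peaks of the 10 libraries at Gata2, Gata4 and Gata5, clipped to the gene with 5 kb on either side; the x axis is distance in kb from the gene's 5′ end in the direction of transcription, each row is 1 library, black boxes are exons, the grey band is the promoter window and the dashed line at Gata4 is the CCDS start site. Wild-type peaks of experiment 1 leave the start sites of Gata2 and Gata5 bare and run across both Gata4 start sites, and the only knockout peaks, 379 and 236 bp wide, are at Gata5.

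Gata3 (ENSMUSG00000015619.9, chr2:9778705-9811661, minus strand) directs T cell development and the luminal mammary epithelium. At its annotated 5′ end coverage was 0% and 0% in the knockout libraries of experiment 1 and 100% and 100% in wild type, a difference of -100 points (p = 0.33, exact permutation test, two-sided, n = 2 each). It was -57.8 points over the windows of all protein-coding transcripts and -15.7 around the CCDS start site. Of all genes, 1.02% had a wild-type mean this high. The wild-type peaks of both libraries there, joined, spanned 18225 bp, from -9879 to 8345 bp relative to the 5′ end, and held the start site of 9230102O04Rik as well.

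Inside the gene both knockout libraries had peaks. Around the CCDS start site, coverage was 34.5% and 14.5% in knockout and 44.2% and 36.2% in wild type. The groups did not overlap, but knockout replicate 1 was nearly as high as wild-type replicate 2. At the start sites 14635 and 16362 bp into the gene, both of processed transcripts, coverage was 44.2% and 33.2% and then 19.1% and 20.1% in knockout, against 65.2% and 73.6% and then 76.2% and 83.6% in wild type. Over the gene with its flanks, 8.83% and 11% lay under knockout peaks and 50.9% and 61.5% under wild-type peaks, a difference of -46.3 points (exact permutation p = 0.33). The windows around CCDS start sites were added after the data had been seen.

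**Figure D3:**
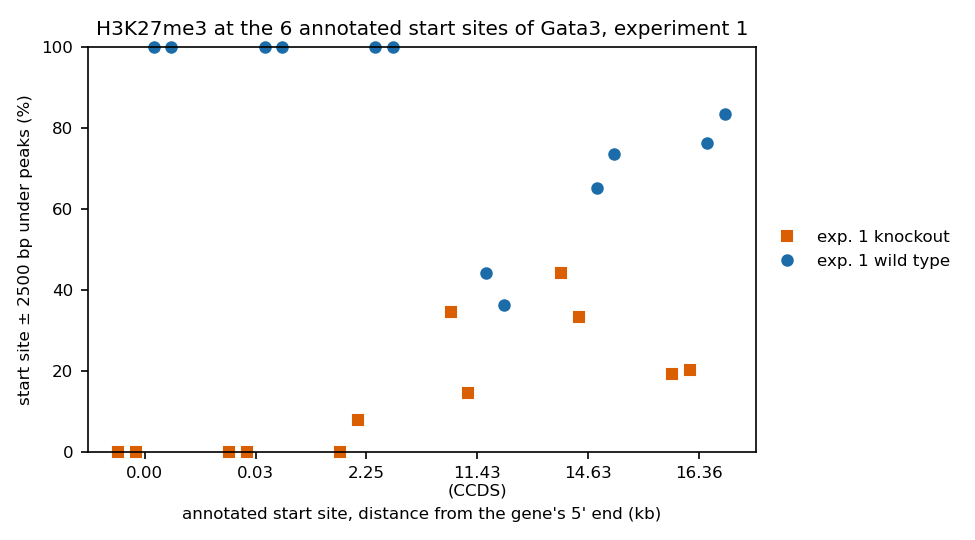
Coverage of the 6 annotated start sites of Gata3 in experiment 1, as the percentage of the start site with 2500 bp on either side under peaks, with knockout libraries as squares and wild-type libraries as circles; the x axis lists start sites by distance from the gene's 5′ end in kb and is not to scale. Knockout points lie at 0 at the 5′ end and between 14.5% and 44.2% at the CCDS start site and at the start site 14635 bp into the gene, and wild-type points are higher at each start site.

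Each experiment 1 knockout library had 3 peaks in Gata3, and 2 of them overlapped between the libraries. A peak of 396 bp that began 9131 bp into the gene was found in replicate 1 alone, and one of 908 bp that began 4354 bp into the gene in replicate 2 alone. The first shared stretch, chr2:9796845-9798452, was 1608 bp long, began 1775 bp downstream of the CCDS start site and held 182 exonic bases. The second, chr2:9804339-9805527, was 1189 bp long and lay wholly in an intron of the longer transcripts, at -5300 to -4112 bp from the CCDS start site. Both also carried wild-type peaks, over 89.7% and 100% of their length in both wild-type libraries. In experiment 2 the Ezh1 rescue covered 100% of each, and the Ezh2 rescue covered 0% of the first and 100% of the second.

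The middle 150 bases of each stretch are printed because knockout and wild-type lists of experiment 1 share them (mm9, minus strand, CG in capitals). They are chr2:9797574-9797723 for the first and chr2:9804858-9805007 for the second.
Gata3 first: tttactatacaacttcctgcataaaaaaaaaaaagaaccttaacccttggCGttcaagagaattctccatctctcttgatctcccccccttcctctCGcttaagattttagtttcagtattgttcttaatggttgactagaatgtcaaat
Gata3 second: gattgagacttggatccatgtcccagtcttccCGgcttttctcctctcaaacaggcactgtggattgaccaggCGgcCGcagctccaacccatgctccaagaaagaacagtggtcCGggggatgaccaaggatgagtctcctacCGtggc

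The stretches differed in composition, with 1.62 CG per 100 bases and 45.0% G+C in the first and 5.38 CG per 100 bases and 54.4% G+C in the second. Other annotated genes share this stretch of chromosome 2, and a peak cannot be assigned to one of them. Around the start of Gm13256, a processed transcript on the opposite strand near the CCDS start, coverage was 44.2% and 33.2% in knockout and 39.3% and 43.8% in wild type, so the groups overlapped. At 4930412O13Rik, also on the opposite strand, it was 28.7% and 39.4% in knockout and 43.8% and 51.5% in wild type.

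In experiment 2 the Gata3 promoter was 100% covered in the Ezh1 and 49.8% in the Ezh2 rescue, and 0% in both knockout and both wild-type libraries. Wild type was not bare over the gene as a whole: with its flanks Gata3 was 65.2% covered in the Ezh1 and 37.9% in the Ezh2 rescue, 0% and 0% in knockout and 1.86% and 5.15% in wild type. Knockout and wild type differed by -3.50 points there (p = 0.33, exact permutation test, two-sided, n = 2 each), and by 0 with peaks of at least 1000 bp only.

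**Figure D4:**
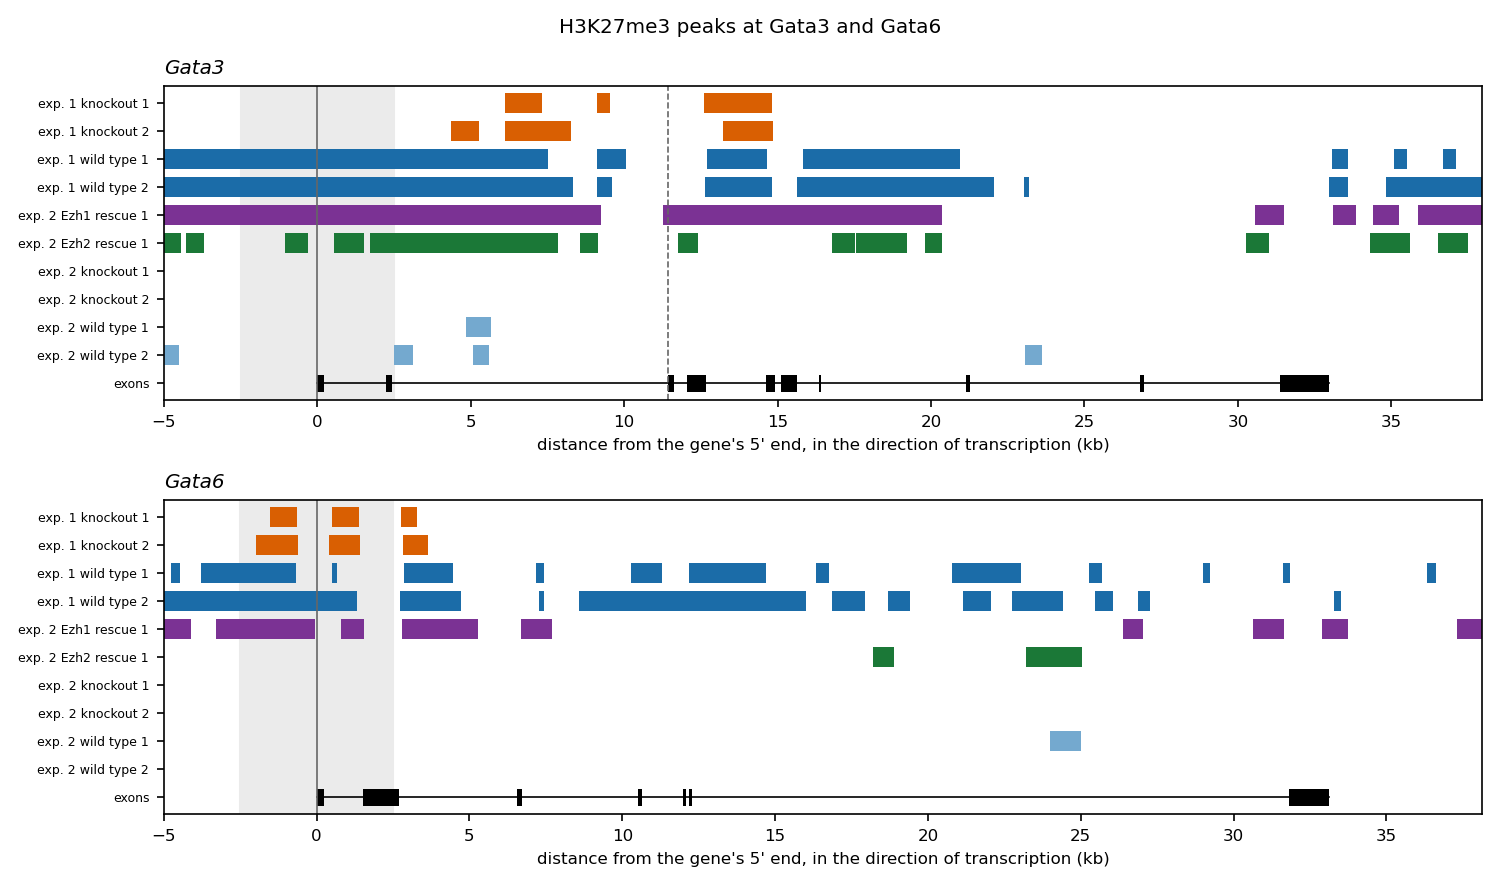
Peaks of the 10 libraries at Gata3 and Gata6, clipped to the gene with 5 kb on either side; the x axis is distance in kb from the gene's 5′ end in the direction of transcription, each row is 1 library, black boxes are exons, the grey band is the promoter window and the dashed line at Gata3 is the CCDS start site. Knockout peaks of experiment 1 lie inside Gata3 and within 4 kb of the Gata6 start site, on both sides of it.

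Gata4 (ENSMUSG00000021944.8, chr14:63817759-63890529, minus strand) is required for heart and foregut formation. Its promoter window was 0% and 0% covered in knockout and 84.2% and 84.2% in wild type in experiment 1, a difference of -84.2 points (p = 0.33, exact permutation test, two-sided, n = 2 each). At the CCDS start site the values were 0% and 0% in knockout and 100% and 100% in wild type. Over the gene with its flanks, 0% and 0% lay under knockout peaks and 76.9% and 81.5% under wild-type peaks (difference -79.2 points, exact permutation p = 0.33), the highest wild-type mean of the 5, although its libraries overlapped those of Gata5. Overlapping peaks of the wild-type libraries were joined into regions present in both, 7 of them at Gata4; the 4 widest spanned 24992, 17188, 14369 and 14239 bp, and the widest reached the start site of the neighbouring DNA repair gene Neil2.

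In experiment 2 Gata4 promoter coverage was 100% in the Ezh1 and 36.0% in the Ezh2 rescue, and 0% in both knockout and both wild-type libraries. With flanks, the gene was 94.8% covered in the Ezh1 and 34.8% in the Ezh2 rescue, 0% and 0% in knockout and 3.99% and 3.93% in wild type. A single Ezh1 rescue peak at Gata4 was 50150 bp wide. The Ezh2 rescue had many shorter peaks in place of it.

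Gata5 (ENSMUSG00000015627.4, chr2:180059838-180069404, minus strand) acts in heart and gut epithelium. Promoter coverage was 0% and 4.72% in the knockout libraries of experiment 1 and 74.7% and 76.2% in wild type, which gives 2.36% ± 3.34 and 75.5% ± 1.02 (SD, n = 2 each). The groups did not overlap and differed by -73.1 points (p = 0.33, exact permutation test, two-sided, n = 2 each). With 1000 bp on either side the difference was -33.0 points. The 4.72% comes from 1 peak of 236 bp in knockout replicate 2, which ended at -496 bp from the start site. A second peak of that library, 379 bp wide, lay 4710 bp into the gene, and knockout replicate 1 had neither. As at Gata2, the wild-type peaks left the start site bare, over 1263 and 1191 bp. Over the gene with its flanks, coverage was 0% and 3.14% in knockout and 65.2% and 80.7% in wild type.

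Experiment 2 gave 100% of the Gata5 promoter under peaks in the Ezh1 and 79.1% in the Ezh2 rescue, 0% and 0% in knockout and 16.1% and 11% in wild type. Knockout was below wild type without overlap, with a difference of -13.5 points (p = 0.33, exact permutation test, two-sided, n = 2 each), or 0 with peaks of at least 1000 bp only. The single Ezh1 rescue peak over Gata5 was 62450 bp wide and contained the whole gene and the window around it. The Ezh2 rescue covered the Gata5 start site itself with a peak of 650 bp, which no experiment 1 wild-type peak overlapped.

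Gata6 (ENSMUSG00000005836.8, chr18:11052508-11085633, plus strand) regulates extraembryonic endoderm, heart and pancreas. Promoter coverage in experiment 1 was 34.9% and 48.3% in knockout and 39.8% and 76.6% in wild type, or 41.6% ± 9.43 and 58.2% ± 26.0 (SD, n = 2 each). The groups overlapped, since knockout replicate 2 was above wild-type replicate 1. The difference of -16.6 points was smaller than the wild-type SD and had p = 0.67 in the exact two-sided permutation test. Without wild-type replicate 2 it turned to 1.79 points, and without wild-type replicate 1 it was -35.0. It was -40.3 points with 5000 bp on either side, -32.6 with peaks of at least 1000 bp only and -6.72 with peaks under 1000 bp apart joined. Only 131 of the 22367 genes, or 0.586%, had a knockout mean at least as high as that of Gata6.

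Gata6 knockout peaks fell at the same 3 places in both libraries. The first shared stretch, of 881 bp, lay at -1515 to -635 bp from the start site and was 97.2% under peaks of both wild-type libraries. The second, of 866 bp, began 517 bp into the gene, in the first intron, and only 16.2% of it lay under peaks in both wild-type libraries, because the peak of wild-type replicate 1 there was 150 bp wide. The third, of 443 bp, began 2834 bp into the gene and was 96.6% under both. A bare stretch across the start site, of 1151 and 990 bp in knockout and 1166 bp in wild-type replicate 1, was present in 3 of the 4 libraries; in wild-type replicate 2 a peak of 8195 bp ran across it.

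Beyond 3642 bp into Gata6 neither knockout library of experiment 1 had a peak. Over the gene with its flanks, 5.22% and 7.47% lay under knockout peaks and 29.8% and 49.9% under wild-type peaks, without overlap and with a difference of -33.5 points (p = 0.33, exact permutation test, two-sided, n = 2 each). The lincRNA 1010001N08Rik starts on the opposite strand within the Gata6 promoter window, and its own window was 34.9% and 48.3% covered in knockout and 38.7% and 75.5% in wild type. These are the peaks counted at Gata6, and they cannot be assigned to one of the pair.

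In experiment 2 the Gata6 promoter was 63.8% covered in the Ezh1 and 0% in the Ezh2 rescue, and 0% in both knockout and both wild-type libraries. With flanks, Gata6 was 27.2% covered in the Ezh1 and 5.91% in the Ezh2 rescue, 0% and 0% in knockout and 2.32% and 0% in wild type, so that knockout and wild type overlapped at 0 (exact permutation p = 1.00). The peaks that the experiment 1 knockout libraries had at Gata6 and Gata3 had no counterpart in the 29 and 382 peaks of the experiment 2 knockout lists.

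Read against all 22367 protein-coding genes, each count of GATA genes has its own background. All 5 had a promoter peak in both wild-type libraries of experiment 1, as did 20.1% of all genes. At the annotated 5′ end, Gata6 alone of the 5 had one in both knockout libraries (4.47% of all genes). Gata6 alone also had one in both knockout and both wild-type libraries (0.675%). Gata2, Gata3 and Gata4 had a peak in both wild-type and in no knockout library (18.6% of all genes), and with Gata5 4 of 5 had knockout coverage below wild type without overlap (19.6%). At the CCDS start sites 2 of 5, Gata2 and Gata4, had a peak in both wild-type and in no knockout library (19.1% of 19468 genes with such a transcript). Around its CCDS start site Gata3 had peaks in both knockout and both wild-type libraries, and the share of all genes doing so was not computed. The start base itself was under no wild-type peak at 2 of 5, Gata2 and Gata5, against 62.6% of the 4506 genes with a promoter peak in both wild-type libraries, so the bare start site was common among marked genes.

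Over the gene with its flanks, all 5 had knockout coverage below wild type without overlap in experiment 1 (29.7% of all genes) and 4 of 5 in experiment 2 (11.1%). Without flanks, the experiment 2 difference was 0 at Gata2 and Gata5, -3.79 points at Gata3 and -4.09 at Gata4. With peaks of at least 1000 bp only, it was 0 at Gata2, Gata3 and Gata5 and -1.93 points at Gata4. In experiment 2, Gata2 and Gata5 had a promoter peak in both wild-type libraries (3.11% of all genes) and none in knockout (3.0%). The Ezh1 rescue had a peak at all 5 promoters and at 28.2% of all promoters. The Ezh2 rescue had one at 4 of 5 and at 18.8% of all.

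The extent of marking in the rescues was also read over the bases that both wild-type libraries of experiment 1 covered in each gene with its flanks. Of the 3733 such bases of Gata2, 100% lay under Ezh1 rescue peaks and 74.9% under Ezh2 rescue peaks. The shares were 94.3% and 58.4% of 21437 bases at Gata3, 99.7% and 44.7% of 61534 bases at Gata4, and 100% and 82.6% of 12524 bases at Gata5. Gata6 had the lowest shares of the 5 in both rescues, 45.5% and 0% of 10368 bases, where the whole genome had 76.8% and 36.3%. With 1 library for each rescue these differences have no replicate check. Of the same bases, the experiment 1 knockout lists covered 16.6% and 17.5% at Gata3, 13.7% and 22.0% at Gata6, 0% and 4.01% at Gata5, and none at Gata2 or Gata4, against 0.648% and 1.97% over the genome.

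**Figure D5:**
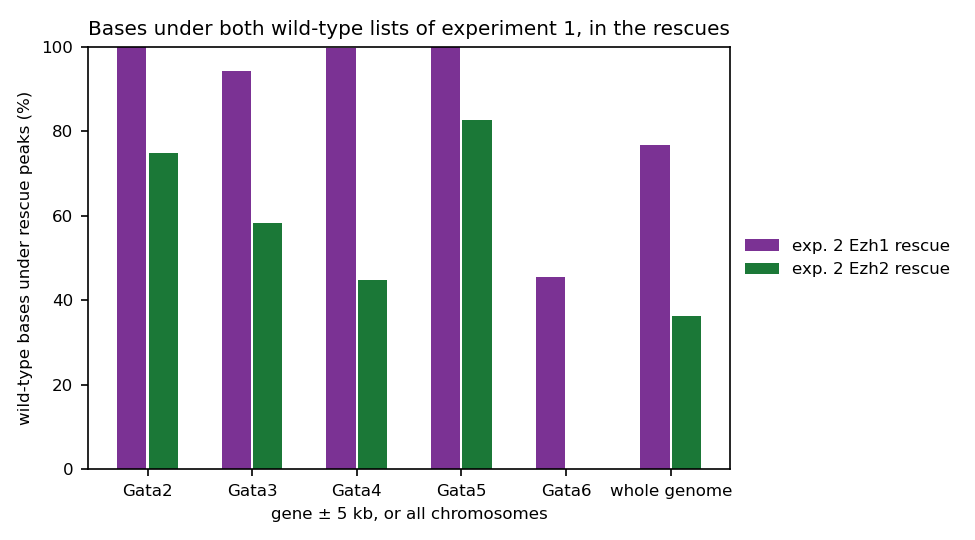
Share of the bases under both experiment 1 wild-type lists that also lay under peaks of the Ezh1 rescue (purple) and the Ezh2 rescue (green), for each GATA gene with 5 kb on either side and for the whole genome; the y axis is percent and each bar is 1 library, without replicates. At Gata6 the Ezh1 bar is at 45.5% and the Ezh2 bar at 0; the bars show peak extent and not the amount of H3K27me3.

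The genes around the 5 differed among loci. Near Gata2, Rpn1, which encodes a subunit of the oligosaccharyltransferase, had no promoter peak in any of the 10 lists, while Dnajb8, 15.2 kb beyond the gene, was 0% and 0% covered in knockout and 61.7% and 73.8% in wild type in experiment 1. Taf3, the gene next to Gata3 at 24.5 kb and a subunit of the general transcription factor TFIID, had no promoter peak in any list. The Neil2 promoter was 0% and 0% covered in knockout and 100% and 83.4% in wild type, and that of Blk, a B cell kinase gene on the other side of Gata4, 0% and 0% in knockout and 81.1% and 100% in wild type. Beyond the flanks of Gata5 the promoters of the nearest protein-coding genes on both sides were marked. BC066135, at 35.3 kb, was 0% and 0% covered in knockout and 86.2% and 87.1% in wild type. Slco4a1, an organic anion transporter gene at 122 kb, was 0% and 0% covered in knockout and 85.8% and 85.2% in wild type. The wild-type peaks at Gata5 did not reach Slco4a1. Gm14318 starts inside the Gata5 promoter window on the opposite strand and was 0% and 3.26% covered in knockout and 52.2% and 63.0% in wild type, so the Gata5 peaks cannot be assigned to one of that pair. The nearest protein-coding genes of Gata6 were farther off. Rbbp8, a DNA end resection gene at 706 kb, had no promoter peak in any list. Mib1, a ubiquitin ligase of Notch signalling at 234 kb, was 0% and 0% covered in knockout and 37.9% and 27.6% in wild type.

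Genes that work with GATA factors were described by the same counts. Of 10 other genes with GATA-type zinc fingers, 1 had a promoter peak in both wild-type libraries of experiment 1, against 20.1% of all genes. This was Trps1, at 0% and 0% in knockout and 5.0% and 9.94% in wild type. Gata1, the erythroid member of the family, had none in experiment 1 and was covered over 18.0% of its window in the Ezh1 rescue. Of the 2 FOG cofactor genes, whose proteins bind GATA zinc fingers, 1 was marked in both wild-type libraries (20.1% of all genes). It was Zfpm1, with 0% and 0% in knockout and 23.8% and 24.8% in wild type. The difference between the 5 members and the other zinc finger genes was not tested, since the members were chosen with results known.

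Among 13 blood partners, 7 had a promoter peak in both wild-type libraries and none in knockout (18.6% of all genes), including Gfi1b, a transcriptional repressor needed for red cell and platelet development, at 0% and 0% in knockout and 100% and 100% in wild type, and Tal1, a blood stem cell factor, at 0% and 0% in knockout and 86.2% and 87.0% in wild type. All 9 endoderm partners did so, among them Hnf4a, a liver and gut nuclear receptor, with 0% and 0% in knockout and 84.8% and 99.4% in wild type. Of 9 cardiac partners 4 were marked in both wild-type libraries (20.1% of all genes) and 3 of these had no knockout peak (18.6%). Hand2, a heart and limb factor, was the exception among these 4, with 18.9% and 15.7% in knockout and 77.7% and 79.6% in wild type. It had 91.0% in the Ezh1 and 0% in the Ezh2 rescue. Tbx5, which was not marked in both wild-type libraries, also had a knockout peak. Its coverage was 0% and 10.7% in knockout and 0% and 10.0% in wild type. The median wild-type coverage was 61.7% for the endoderm list, 34.6% for the blood list and 5.0% for the cardiac list, against 75.5% for the 5 GATA genes and 0% over all genes.

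The likeness of promoter patterns was measured as the root mean square difference in percentage points over the 10 libraries. The nearest genes were Srgn for Gata2 (1.00 point), Nrl for Gata3 (0.379), Rem1 for Gata4 (0.989), Rgs10 for Gata5 (3.12) and Tcfl5 for Gata6 (8.03). Gata6 thus had no other gene as near to it as the other 4 members had. Tcfl5 was 30.4% and 58.8% covered in knockout, and 32.4% and 55.8% in wild type. Among the members themselves, Gata3 and Gata4 were nearest to each other (8.31 points) and Gata5 and Gata6 farthest apart (35.0 points).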

How the data were processed

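Peak lists of H3K27me3 were read for 10 libraries, and 2 input samples had no peak list here. Each deposited file gives a chromosome, start and end per peak and no other value. According to the study's methods, the authors mapped SOLiD reads with Bowtie and HiSeq reads with Bowtie 2 to mm9, removed duplicates with SAMtools, scaled read numbers by down-sampling with an additional coefficient for Ezh2 -/- and the Ezh1 rescue, and called peaks per sample against input; tools named in the submitters' processing notes were MACS2 2.0.10, HOMER 3.17, Bowtie2 2.1.0 and Bowtie 0.12.8. The methods describe the coefficient ahead of peak calling; the lists do not show whether peaks were called on the scaled reads, which would change the extent of the knockout and Ezh1 rescue lists. Depth per library is unknown, so no counting interval was possible.

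Repeated lines (511) and mitochondrial peaks (2) were removed and peaks merged with Python 3.11.15 and NumPy 2.4.6. No peak ran past a chromosome end of the reference (mm9), from which sequences were read. A gene was marked when at least 1 bp of its promoter window lay under a peak. Knockout and wild type were compared within each experiment on the percentage of a window covered, by an exact two-sided permutation test (SciPy 1.17.1). Coverage was tested on simulated peaks. The members and gene lists were chosen with earlier results of these data known. Of 44 listed partner genes, 1 was not matched as protein-coding. The text describes all 5 members, the start sites of Gata3 and Gata4, neighbours, list genes as examples, and the gene nearest to each member in pattern of the 3 nearest. Window size, peak width, minimum coverage, transcript choice, each library and a replicate block were varied.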

Additional observations from a re-analysis of the deposited data

How the results depend on the processing

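In experiment 1 the mean promoter difference over the 5 genes, knockout minus wild type, was -68.6 points. It was -58.0 with windows of 1000 bp on either side, -72.0 with peaks of at least 1000 bp only, -53.0 with windows around all protein-coding transcripts and -54.9 at the CCDS start sites, an alternative added after the data had been seen. Of 55 alternative values for single genes, 54 were below 0, among them those of a replicate block, which repeat the main values. The exception was Gata6 without wild-type replicate 2, at 1.79 points (leaving out 1 library at a time, -35.0 to 1.79). In experiment 2 the mean promoter difference was -5.81 points, and -9.16, -4.80, 0 and -4.63 with 1000 bp windows, 5000 bp windows, peaks of at least 1000 bp and all transcripts; leaving out 1 library at a time gave -6.01 to -5.60. The experiment 2 gene body difference of -3.85 points became -1.88 without flanks and -0.618 with peaks of at least 1000 bp. The 2 genes marked in wild type and not in knockout there became 1 with 1000 bp windows and 0 with peaks of at least 1000 bp. A replicate block leaves the mean differences at -68.6 and -5.81 by construction, since each block holds 1 knockout and 1 wild-type library. With 2 pairs, shared numbers do not show that the samples are paired. In experiment 1 the corresponding count of 3 ranged from 2 to 4, and the rescue counts of 5 and 4 held in every alternative run. Of 188 alternative values, 142 moved by less than the replicate spread, or at most 1.5-fold for counts. Part of these could not move, so the total is no measure of robustness. The replicate block repeats the main value, and many experiment 2 promoter values of Gata3, Gata4 and Gata6 compare 0 with 0. The causes of these shifts were not tested. Peak lists without heights or depths limit every value to presence and extent.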
